A study of Saccharomyces cerevisiae with 24 samples.

Results

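The sulfur assimilation, methionine and homoserine pathway of budding yeast (Saccharomyces cerevisiae) is described here by 36 genes, taken by systematic name from the 5912 genes quantified in each library. The set runs from sulfate uptake to S-adenosylmethionine and includes the homoserine branch, the permeases for sulfur-containing compounds and the regulators. Messenger RNA was sequenced from haploid MATa cells of the BY4741 background grown in rich medium (YPD). Wild type, gcn2Δ (GCN2 replaced by the KAN marker), gcn4Δ (GCN4 replaced by KAN) and mbf1Δ (MBF1 replaced by the NAT marker) were grown with no treatment or with 0.1% methyl methanesulfonate (MMS) for 1 h. MMS alkylates DNA and RNA. With 3 biological replicates in each of 8 groups, there were 24 libraries. The design asks how the response to MMS depends on genotype. When uncharged tRNA or stalled ribosomes activate the kinase Gcn2, it phosphorylates eIF2, and translation of the activator Gcn4 goes up. Mbf1 is a coactivator that bridges Gcn4 and the transcription machinery. BY4741 carries a deletion of MET17, so untreated and treated cells of every strain lacked the enzyme that joins sulfide to O-acetylhomoserine.

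Total estimated counts per library ranged from 13518115 to 28366473. MET17 (YLR303W) was listed at 0 in all 24 libraries, which allows up to 0.106 to 0.222 CPM (counts scaled to a common library total) per library at a limit of 3 counts. In its own deletion strain GCN2 was at 0.50 to 1.22 CPM, GCN4 at 22.2 to 30.9 and MBF1 at 0.073 to 2.82. Rows that match ribosomal RNA took a mean of 15.8% of counts in untreated and 17% in treated wild type, against 1.30% and 0.529% in gcn4Δ, 7.70% and 14.2% in gcn2Δ, and 12.6% and 16.1% in mbf1Δ. The share in these rows was lower in every gcn4Δ library than in any library of the other strains. In contrasts of gcn4Δ with another strain, the deletion and this difference cannot be told apart. With those rows left out, 461 of 468 values of single members kept their side of the threshold, and the calls lost were those of MET2 in the gcn4Δ interaction and MET30 in the contrast of gcn4Δ with gcn2Δ. Untreated wild type replicate 3 stood apart for several members, such as CYS3 at 1132 CPM against 1582 and 1697, and treated mbf1Δ replicate 1 had the lowest mean correlation with its own group (0.984, against 0.988 to 0.997 for the other 23 libraries). In that mbf1Δ library ribosomal RNA rows took 9.57% of counts, against 19.2% and 19.5%, and CYS3 stood at 678 CPM against 1144 and 1151. Some results that rest on either library are given with and without it. No value without treated mbf1Δ replicate 1 is named for SAM1, SAM3 or MET14 in mbf1Δ.

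Yeast takes up sulfate, activates it in steps that consume ATP and reduces it to sulfide. Sulfide is joined to a carbon chain made from aspartate through homoserine, which yields homocysteine. Homocysteine is methylated to methionine or passed to cysteine by transsulfuration, and methionine becomes S-adenosylmethionine, the main methyl donor of the cell. Transcription of much of the pathway depends on the activator Met4, which reaches DNA through Cbf1 or through Met31 and Met32. Gcn4, the general activator of amino acid biosynthesis, binds the sequence TGACTCA, Cbf1 binds CACGTG, and Met31 and Met32 recognise a site with the core CTGTGG.

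These 3 motifs were searched on both strands in the window from 250 bases before to 50 after the start of each coding sequence (R64 build, 5908 windows). TGACTCA was found in 7 of the 36 members (19.4%) and in 2.78% of all windows. Allowing any middle base (TGANTCA, which contains TGACTCA) gave 9 members (25%) and 7.40% of all windows. CACGTG was found in 10 members (27.8%, against 2.96%) and CTGTGG in 9 (25%, against 6.91%). MHT1 and MMP1 are divergent neighbours and share the same pair of CTGTGG matches. The TGACTCA matches are shown because members that hold one are followed through the contrasts below. Each is given 5′ to 3′ on the strand of its gene with 10 flanking bases on either side, and capitals mark the motif, which reads TGAGTCA where it lies on the other strand.
MET16: agccacaacaTGACTCAgcaaatctcg
MET22: aatgcgcgaaTGACTCAgacgagcaat
MET5: ctggaaaattTGAGTCAtggagatgcg
HOM2: aagcattgatTGACTCAttttcctctg
MUP1: gtgaatttctTGAGTCAgcccgttatt
MUP3: gaggcctgccTGAGTCAaggggcaaaa
MET28: gtcactggcgTGAGTCAaggccgggca

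The matches lie, in the same order, at chrXVI:877764-877790, chrXV:207314-207340 and chrX:683483-683509 on the minus strand, chrIV:770163-770189, chrVII:599237-599263 and chrVIII:26107-26133 on the plus strand, and chrIX:384206-384232 on the minus strand. MET16, MET22 and MET28 hold TGACTCA and CACGTG together, and MET28 also holds CTGTGG, which reads CCACAG on its strand. Their upstream stretches from base -250 to base -91 before the coding start are shown for that reason, with all matches to the 3 motifs in capitals (MET16 at chrXVI:877723-877882, MET22 at chrXV:207267-207426, MET28 at chrIX:384210-384369, all minus strand).
MET16: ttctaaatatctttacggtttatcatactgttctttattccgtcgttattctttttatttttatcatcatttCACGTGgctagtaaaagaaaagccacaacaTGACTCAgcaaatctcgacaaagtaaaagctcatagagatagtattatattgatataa
MET22: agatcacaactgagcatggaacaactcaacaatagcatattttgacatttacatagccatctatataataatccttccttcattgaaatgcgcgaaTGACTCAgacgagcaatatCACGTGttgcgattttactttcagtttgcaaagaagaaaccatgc
MET28: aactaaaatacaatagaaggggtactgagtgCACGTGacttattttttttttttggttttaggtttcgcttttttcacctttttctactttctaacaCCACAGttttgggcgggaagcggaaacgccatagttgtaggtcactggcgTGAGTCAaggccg

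In wild type, MMS raised 19 of the 36 genes and lowered 9, and 8 were not called. Over all genes tested, 42% were called higher and 41.2% lower in that contrast, so the members' share of falls was below that background and their share of rises somewhat above it. The median log2 fold change was 0.35 for the members and 0.02 for all genes. A gene is called here when its adjusted p is under 0.05 in edgeR's quasi-likelihood test with Benjamini-Hochberg adjustment over all genes. All 36 members passed the filter on low counts, so no member was left out of any contrast. In gcn2Δ, 17 members rose and 14 fell (41.4% and 40.4% of all genes), in gcn4Δ 16 rose and 14 fell (40.7% and 42.6%), and in mbf1Δ 16 rose and 15 fell (42.7% and 40.1%). The members' medians in the 3 mutants were 0.15, 0.12 and 0.17. On TPM, Salmon's length-scaled relative abundance, the splits of members higher and lower were 27 and 6 (wild type), 22 and 8 (gcn2Δ), 23 and 7 (gcn4Δ) and 24 and 10 (mbf1Δ), beside a shift of the median of all genes by 0.54 to 0.67 (log2). Across the 4 strains, 10 members rose in every one (SUL1, SUL2, MET10, MET1, MET2, STR2, STR3, MET28, MET30 and CBF1). Another 7 fell in every one (MET8, MET6, CYS4, SAM1, SAM2, MMP1 and MET31). The shares of all genes with these patterns were not counted. Both lists therefore describe the members alone and set nothing apart from other genes. On TPM, MET31 was called in no strain (-0.03, 0.01, -0.18 and 0.14 in wild type, gcn2Δ, gcn4Δ and mbf1Δ), and MET8 lost its call in gcn2Δ (-0.02) and gcn4Δ (-0.13). TPM values that ended a call, added one or changed a sign in a response are given below with each gene. They were not scaled further between libraries and are to be read beside that shift of the median of all genes. The shares of all genes called on TPM are not given here, so the splits on TPM cannot be set against them. Without treated mbf1Δ replicate 1, 18 members rose and 14 fell in mbf1Δ, and in wild type 20 rose and 11 fell. The shares of all genes above are those of the fit to all 24 libraries. These are measurements on whole cultures, in which a change in every cell and a change in some cells cannot be told apart.

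Interactions, that is, the MMS response of a mutant minus that of wild type, separated the members more. In gcn2Δ the interaction was lower for 15 members and higher for 4, where 17.3% and 18.6% of all genes were called in those directions. In gcn4Δ it was lower for 14 and higher for 7 (background 16.4% and 18.8%), and in mbf1Δ lower for 15 and higher for 2 (background 12.4% and 11.6%). The members' median interactions were -0.21, -0.13 and -0.28, against 0.03, -0.01 and 0.02 over all genes. The 3 interactions share the wild type libraries, so they are not independent. The members lower in each of them were MET16, MET22, MET10, HOM3, HOM2, MET6, STR2, STR3, SAM4 and MET28. Of the 36 genes, 9 were called in none of the 3 (SUL2, MET3, MET1, HOM6, MET12, SAM2, MET31, MET32 and MET30). The shares of all genes with either pattern were not counted, and the shares for single interactions do not give them. The 4 higher calls in gcn2Δ fell to 2 without untreated wild type replicate 1 or without treated wild type replicate 2. The 2 higher calls in mbf1Δ fell to 1 without untreated wild type replicate 3, treated wild type replicate 1 or untreated mbf1Δ replicate 3.

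**Figure D1:**
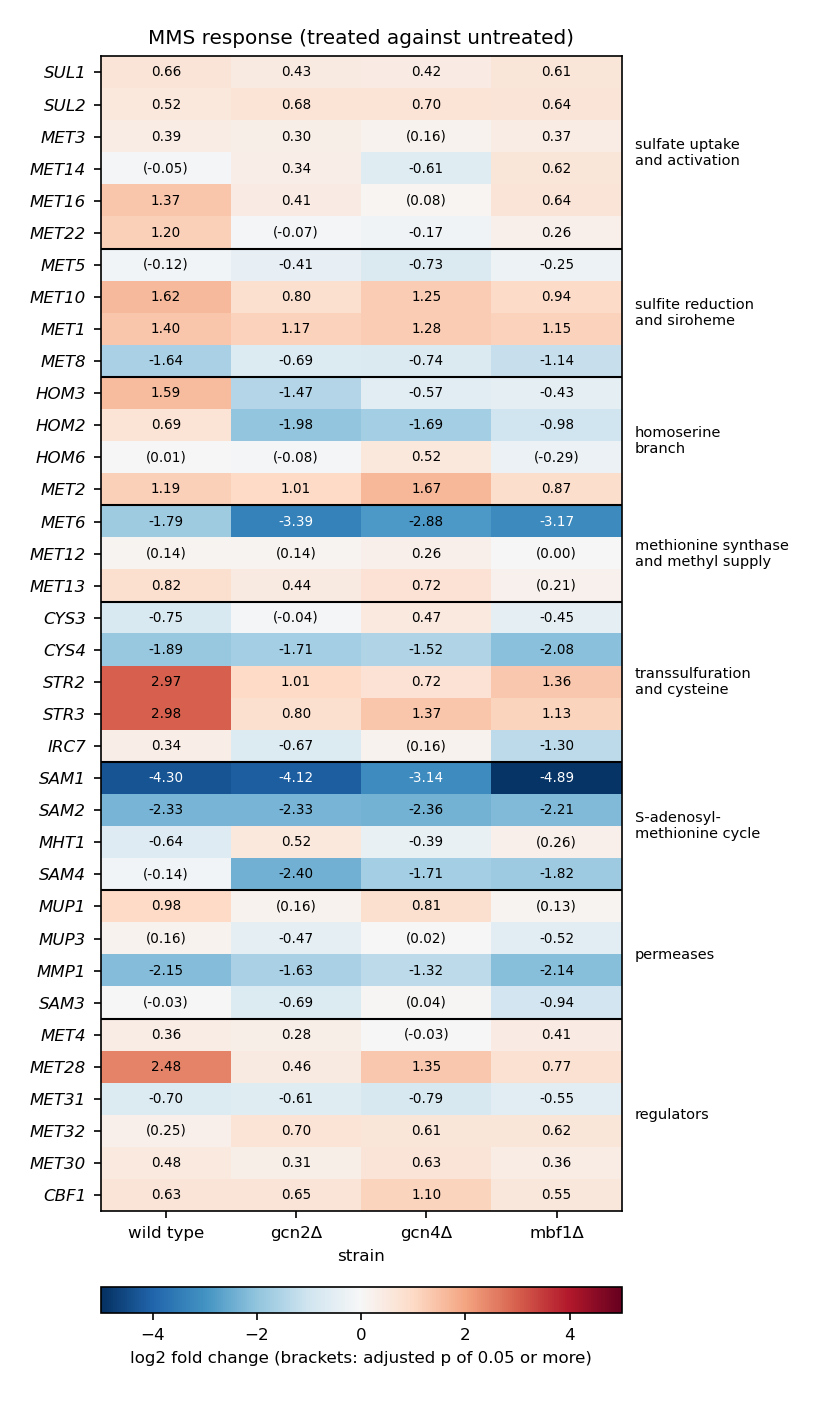
Log2 fold changes between treated and untreated libraries for the 36 genes (rows, by role) in the 4 strains (columns), from edgeR with n = 3 per group. Red is higher after MMS and blue lower, and brackets mark adjusted p of 0.05 or more. HOM3 and HOM2 are red in wild type (1.59 and 0.69) and blue in the 3 mutants, while SAM1 is the deepest blue in every strain.

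Among the genes of sulfate uptake and activation, 5 of 6 rose in wild type. The sulfate permeases SUL1 and SUL2 rose by 0.66 and 0.52 (log2), and MET3, which encodes ATP sulfurylase, by 0.39. In gcn4Δ MET3 was not called (0.16, adjusted p = 0.0526), but it was with DESeq2 (0.18, adjusted p = 0.0183), on TPM (0.74) and in 11 of the 24 fits that each left out 1 library. MET14, the adenylylsulfate kinase, gave -0.05 ± 0.15 in wild type and was not called, and on TPM it was 0.54. It rose in gcn2Δ (0.34) and mbf1Δ (0.62) and fell in gcn4Δ (-0.61, which became 0.02 on TPM). The gcn2Δ call was lost without treated gcn2Δ replicate 1 or untreated gcn2Δ replicate 2, with log2 values of 0.19 and 0.28 and an adjusted p of up to 0.195.

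MET16 (YPR167C, chrXVI:876847-877632, minus strand) encodes the reductase that converts phosphoadenylylsulfate to sulfite. It had 6.8, 7.75 and 7.51 CPM in the untreated wild type libraries and 19.6, 18.9 and 18.7 after MMS. The gcn2Δ libraries had 8.25, 7.54 and 8.03 untreated and 13.8, 10.1 and 7.67 treated, and the gcn4Δ libraries 7.88, 9.39 and 8.83 and 8.49, 9.71 and 9.39. In mbf1Δ the values were 6.7, 8.75 and 7.57, then 14.8, 10.4 and 10.1. Treated wild type libraries stood above all others, and treated and untreated libraries overlapped in gcn2Δ and gcn4Δ. The wild type change was 1.37 ± 0.17 (log2 ± SE, adjusted p = 1.60e-07). Interactions were -0.97 ± 0.24 in gcn2Δ (adjusted p = 0.00302), -1.3 ± 0.24 in gcn4Δ (adjusted p = 1.69e-04) and -0.74 ± 0.25 in mbf1Δ (adjusted p = 0.0332). The mbf1Δ call was lost without any 1 of 8 libraries, namely replicates 1 and 3 of untreated and 1 and 2 of treated wild type, and replicates 2 and 3 of untreated and of treated mbf1Δ, with values from -0.75 to -0.63 and an adjusted p of up to 0.0919. The response within gcn2Δ (0.41) was likewise lost without treated replicate 1, untreated replicate 2 or untreated replicate 3 of that strain, with values from 0.19 to 0.41 and an adjusted p of up to 0.259. With the groups of the contrast alone the gcn2Δ response was 0.43 (adjusted p = 0.0602). On TPM the mbf1Δ interaction was not called (-0.62, adjusted p = 0.193) and MET16 rose in gcn4Δ (0.63, adjusted p = 0.00999).

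MET22 (YOL064C, chrXV:206103-207176, minus strand) encodes the phosphatase that clears phosphoadenosine phosphate, the by-product of that reduction. Wild type had 86.6, 96.6 and 86.3 CPM untreated and 205, 206 and 209.7 treated. Values were 87.7, 87 and 82.9, then 83.2, 84.5 and 78.2 in gcn2Δ, and 85.1, 78.5 and 82.9, then 71.7, 75.2 and 72.6 in gcn4Δ. The mbf1Δ libraries had 83, 86.4 and 83.9 before and 96, 107 and 100.1 after. All 3 treated wild type libraries exceeded every other library, and treated mbf1Δ libraries exceeded their untreated controls by less. The wild type rise was 1.2 ± 0.056 (adjusted p = 2.83e-15), and interactions were -1.27 ± 0.078, -1.37 ± 0.078 and -0.95 ± 0.078 in gcn2Δ, gcn4Δ and mbf1Δ, with adjusted p-values of 1.75e-11, 6.48e-12 and 4.87e-09. The small fall within gcn4Δ (-0.17) became 0.41 on TPM, and its call was lost without treated gcn4Δ replicate 1 or 3 (values of -0.12 and -0.11, adjusted p of up to 0.0964). In gcn2Δ MET22 was not called on counts (-0.07) and was 0.49 on TPM (adjusted p = 1.62e-04).

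Sulfite is reduced to sulfide by the enzyme whose subunits are encoded by MET5 and MET10, with a siroheme cofactor made by the products of MET1 and MET8. MET10 rose in wild type by 1.62 ± 0.095 and MET1 by 1.4 ± 0.092, while MET5 was not called (-0.12 ± 0.060). MET5 fell in the 3 mutants (-0.41 in gcn2Δ, -0.73 in gcn4Δ and -0.25 in mbf1Δ), and on TPM it was called in neither gcn2Δ (0.18) nor gcn4Δ (-0.11) and was higher in mbf1Δ (0.42). In wild type MET5 was called lower with DESeq2 (-0.15, adjusted p = 0.0265) and higher on TPM (0.45, adjusted p = 0.00365), and lower in 7 of the 24 fits that each left out 1 library. On the count scale MET10 rose and MET5 fell in each mutant. MET10 interactions were -0.83 in gcn2Δ, -0.37 in gcn4Δ and -0.68 in mbf1Δ. The gcn4Δ call was lost without any 1 of 9 libraries (treated gcn2Δ replicate 2, treated gcn4Δ replicates 1, 2 and 3, untreated gcn4Δ replicates 1 and 3, treated mbf1Δ replicate 3, treated wild type replicate 1 and untreated wild type replicate 3), with values from -0.36 to -0.29 and an adjusted p of up to 0.114. DESeq2 did not call it either (-0.33, adjusted p = 0.0666).

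MET8 (YBR213W, chrII:650368-651192, plus strand), whose product carries out the last steps of siroheme synthesis, moved against MET1. It had 11.3, 11.7 and 9.75 CPM in untreated and 3.39, 3.38 and 3.65 in treated wild type. The gcn2Δ values were 7.21, 7.68 and 8.94, then 4.31, 4.54 and 6.06, and the gcn4Δ values 10.1, 9.66 and 7.31, then 5.1, 5.48 and 5.72. In mbf1Δ they were 7.08, 10.2 and 11.1, then 3, 4.64 and 5.6. Treated libraries lay below untreated ones in every strain, and the treated gcn2Δ and gcn4Δ libraries lay above the treated wild type libraries. The wild type fall was -1.64 ± 0.21 (adjusted p = 1.86e-07), and the interactions were 0.96 ± 0.28 in gcn2Δ (adjusted p = 0.011), 0.91 ± 0.28 in gcn4Δ (adjusted p = 0.0139) and, not called, 0.51 ± 0.29 in mbf1Δ (adjusted p = 0.218). Without treated mbf1Δ replicate 1, the mbf1Δ interaction of MET8 was 0.77 with an adjusted p of 0.0381.

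In the homoserine branch, which builds the carbon chain from aspartate, 3 of 4 genes rose in wild type. HOM3 (YER052C, chrV:256375-257958, minus strand) encodes aspartate kinase, the first enzyme of the branch. It had 289, 282 and 222 CPM in untreated wild type and 844, 739.8 and 799 after MMS. In gcn2Δ it went from 197, 207 and 201 to 60.8, 71 and 87.5, and in gcn4Δ from 196, 161 and 159 to 119, 118 and 111. The mbf1Δ libraries had 225, 236 and 281 and then 149, 194 and 208. Treated wild type libraries were the highest of the 24, and the treated libraries of each mutant lay below their own untreated controls. The wild type rise was 1.59 ± 0.13 (adjusted p = 1.33e-10), a 3.01-fold change. HOM3 fell in gcn2Δ (-1.47 ± 0.13), gcn4Δ (-0.57 ± 0.13) and mbf1Δ (-0.43 ± 0.13), but on TPM the gcn4Δ and mbf1Δ values were 0.06 and 0.26. Interactions were -3.05 ± 0.19, -2.15 ± 0.18 and -2.02 ± 0.18 in gcn2Δ, gcn4Δ and mbf1Δ, with adjusted p-values of 1.69e-11, 3.73e-09 and 2.12e-08.

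HOM2 (YDR158W, chrIV:770357-771454, plus strand) encodes the next enzyme, aspartate semialdehyde dehydrogenase, and 16% of its coding span lies inside the model of a neighbour, YDR157W. Its levels in wild type were 736, 757 and 649 CPM untreated and 1189, 1134 and 1144 treated. Untreated gcn2Δ libraries had 614, 654 and 599 and treated ones 154, 154 and 167. The gcn4Δ libraries had 532, 474 and 499 and 158, 156 and 152, and the mbf1Δ libraries 679.8, 696 and 742 and 303, 376 and 394. Every treated mutant library lay below every untreated library of any strain, and treated mbf1Δ libraries lay above those of gcn2Δ and gcn4Δ. HOM2 rose in wild type by 0.69 ± 0.081 (adjusted p = 5.19e-08) and fell in gcn2Δ (-1.98), gcn4Δ (-1.69) and mbf1Δ (-0.98). Its interactions were -2.67 ± 0.12, -2.39 ± 0.12 and -1.68 ± 0.12, with adjusted p-values of 3.69e-14, 4.21e-13 and 2.37e-10. HOM3 and HOM2 were the members that rose in wild type and fell in the 3 mutants.

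The remaining genes of the branch did not share that pattern. HOM6, the homoserine dehydrogenase, gave 0.01 ± 0.16 in wild type and was called on counts in gcn4Δ (0.52) and in no other strain. Its gcn4Δ interaction (0.51, adjusted p = 0.0823) was not called, but it was on TPM (0.49, adjusted p = 0.00214), with the groups of the contrast alone (0.56, adjusted p = 0.0112) and in 6 of the 24 fits that each left out 1 library. On TPM, HOM6 was also called higher in wild type (0.66), gcn2Δ (0.52) and mbf1Δ (0.42), and without treated mbf1Δ replicate 3 it was called lower on counts in mbf1Δ (-0.41, adjusted p = 0.0311). MET2, the homoserine O-acetyltransferase that makes the substrate of the missing Met17, rose in all 4 strains (1.19 in wild type, 1.01 in gcn2Δ, 1.67 in gcn4Δ and 0.87 in mbf1Δ). Its gcn4Δ interaction of 0.48 (adjusted p = 0.049) was lost in 15 of the 24 fits that each left out 1 library, with an adjusted p of up to 0.148, and became 0.47 with an adjusted p of 0.0546 without the ribosomal RNA rows.

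**Figure D2:**
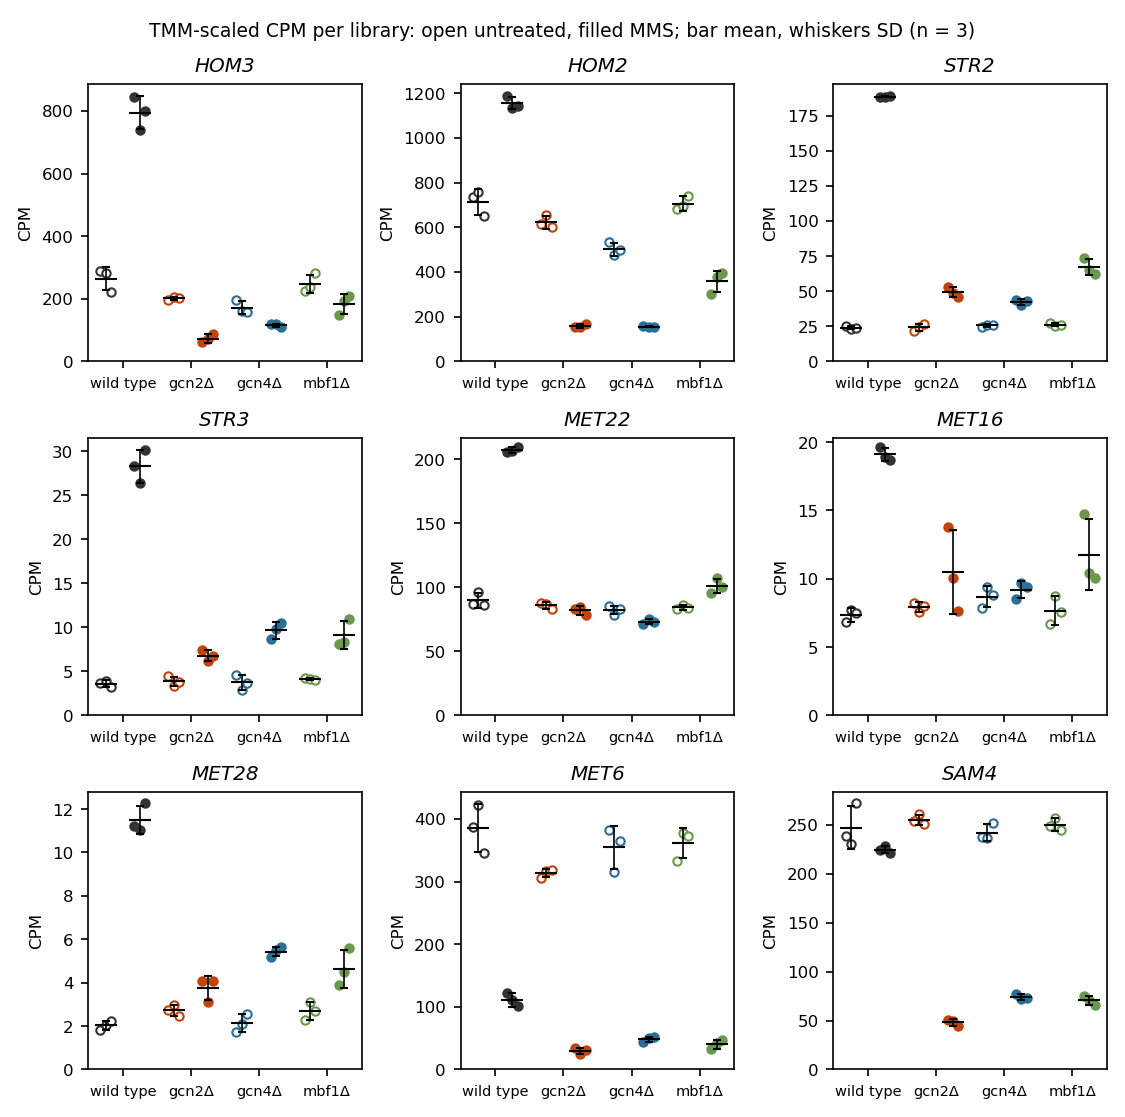
CPM after TMM scaling in each of the 24 libraries for 9 members (panels, linear axes from 0), with open points untreated, filled points treated, and bars and whiskers the mean and SD of 3 replicates. In the panels for HOM3, HOM2, STR2, STR3, MET22, MET16 and MET28 the 3 treated wild type points stand above all other groups.

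MET6 (YER091C, chrV:339864-342167, minus strand), the methionine synthase, fell in every strain and further in the mutants. Wild type had 387, 422 and 346 CPM untreated and 123, 110.2 and 101 treated. In gcn2Δ the values were 306, 316 and 318, then 34.4, 24.8 and 30.5, and in gcn4Δ 383, 315 and 365, then 43.4, 49.9 and 51.2. The mbf1Δ libraries had 333, 377 and 373, then 32, 42.6 and 46.3. Treated libraries of the 3 mutants lay below all treated wild type libraries. The wild type fall was -1.79 ± 0.12 (adjusted p = 4.63e-12), against -3.39, -2.88 and -3.17 in gcn2Δ, gcn4Δ and mbf1Δ. The interactions were -1.6 ± 0.17, -1.09 ± 0.17 and -1.38 ± 0.17, with adjusted p-values of 1.86e-07, 2.46e-05 and 3.03e-06. The methylenetetrahydrofolate reductase genes MET12 and MET13, which share 59.3% of their aligned coding bases, supply the methyl group. MET13 rose in wild type (0.82), gcn2Δ (0.44) and gcn4Δ (0.72), and MET12 rose in gcn4Δ (0.26). MET12 was not called on counts in the other strains with all libraries (0.14 in wild type, 0.14 in gcn2Δ and 0.00 in mbf1Δ). It was called in wild type and gcn2Δ without the ribosomal RNA rows (0.18 in each, adjusted p = 0.0212 and 0.0193), and in 2 and 7 of the 24 fits that each left out 1 library. On TPM MET12 was called higher in wild type (0.74, adjusted p = 6.75e-09), gcn2Δ (0.72) and mbf1Δ (0.67), and MET13 in mbf1Δ (0.90), where MET13 was also called without treated mbf1Δ replicate 1 (0.35, adjusted p = 0.00789).

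STR2 and STR3 had the largest rises of the 36 genes in wild type. Their products, cystathionine γ-synthase and cystathionine β-lyase, carry sulfur between cysteine and homocysteine. STR2 (YJR130C, chrX:665218-667137, minus strand) had 25.1, 23.2 and 24 CPM in untreated wild type and 188, 188 and 189 after treatment. The gcn2Δ libraries had 21.7, 24.8 and 26.5, then 52.8, 48.7 and 45.8. In gcn4Δ there were 24.5, 26.2 and 26.3, then 44, 39.9 and 43.3, and in mbf1Δ 27.1, 25.4 and 25.9, then 73.5, 65.2 and 62.6. Treated libraries exceeded untreated ones in each strain, and every treated mutant library was below every treated wild type library. The rise was 2.97 ± 0.078 in wild type (adjusted p = 8.76e-20), a 7.82-fold change, and 1.01, 0.72 and 1.36 in the mutants. STR2 interactions were -1.95 ± 0.11, -2.24 ± 0.11 and -1.6 ± 0.11 in gcn2Δ, gcn4Δ and mbf1Δ, with adjusted p-values of 2.42e-12, 2.77e-13 and 1.64e-10.

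STR3 (YGL184C, chrVII:154615-156012, minus strand) was expressed at a lower level. It had 3.7, 3.92 and 3.18 CPM in untreated and 28.3, 26.4 and 30.1 in treated wild type. Untreated and treated values were 4.42, 3.37 and 3.77 and 7.38, 6.16 and 6.79 in gcn2Δ, and 4.61, 2.91 and 3.74 and 8.63, 9.83 and 10.5 in gcn4Δ. The mbf1Δ libraries had 4.26, 4.17 and 4.01 and 8.12, 8.34 and 11. As for STR2, treated libraries were higher in each strain and highest in wild type. The wild type rise was 2.98 ± 0.16 (adjusted p = 2.93e-14), a 7.9-fold change, and the interactions were -2.18 ± 0.22, -1.61 ± 0.22 and -1.86 ± 0.23, with adjusted p-values of 8.54e-08, 4.01e-06 and 2.79e-06.

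The genes that run the opposite way, from homocysteine to cysteine, moved differently. CYS4, the cystathionine β-synthase, fell in all 4 strains, with log2 changes of -1.89, -1.71, -1.52 and -2.08 (wild type, gcn2Δ, gcn4Δ and mbf1Δ). CYS3, the cystathionine γ-lyase, fell in wild type (-0.75 ± 0.17) and mbf1Δ (-0.45 ± 0.17) and rose in gcn4Δ (0.47 ± 0.17). On TPM it was not called in wild type (-0.04, adjusted p = 0.662) and was positive in mbf1Δ (0.29) and gcn2Δ (0.66, adjusted p = 6.72e-07). The median of all genes on TPM lay at 0.55, 0.67 and 0.56 in wild type, mbf1Δ and gcn2Δ. The mbf1Δ call was lost without treated replicate 1 or untreated replicate 3 of that strain (values of -0.37 and -0.24, adjusted p of up to 0.143) and with the groups of the contrast alone (adjusted p = 0.061), and the gcn4Δ call without untreated gcn4Δ replicate 2 or 3 (0.40, adjusted p of up to 0.0635). Its interaction was higher in gcn4Δ (1.22, adjusted p = 4.36e-04). The higher gcn2Δ interaction (0.71) was lost without any 1 of 5 libraries (treated gcn2Δ replicate 3, untreated gcn2Δ replicate 1, treated wild type replicate 2 and untreated wild type replicates 1 and 2), with values from 0.56 to 0.69 and an adjusted p of up to 0.0732. Untreated, CYS3 in gcn2Δ was at -0.47 against wild type (not called, adjusted p = 0.122). Treated gcn2Δ and treated wild type libraries overlapped for CYS3. IRC7, a β-lyase acting on cysteine conjugates, rose in wild type (0.34), fell in gcn2Δ (-0.67) and mbf1Δ (-1.3), and was not called in gcn4Δ (0.16). The gcn4Δ value was called without the ribosomal RNA rows (0.20, adjusted p = 0.0428), with the groups of the contrast alone (0.20, adjusted p = 8.56e-04), on TPM (0.78) and in 6 of the 24 fits that each left out 1 library. On TPM the gcn2Δ fall of IRC7 was not called (-0.03, adjusted p = 0.703).

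SAM1 (YLR180W, chrXII:515262-516410, plus strand) and SAM2 encode the S-adenosylmethionine synthetases and share 83.2% of their aligned coding bases, so some reads may not separate them. SAM1 had 1368, 1462 and 1089 CPM in untreated and 70.9, 63.6 and 64.2 in treated wild type. In gcn2Δ it had 974, 1010.4 and 1015, then 58, 46.4 and 67.9, and in gcn4Δ 1029.96, 845 and 824, then 96.7, 108 and 101. The mbf1Δ libraries had 1108, 1169 and 1320.1, then 28.5, 48.7 and 44.5. Every treated library was far below every untreated one, and among treated libraries those of gcn4Δ were the highest, while those of mbf1Δ overlapped those of gcn2Δ and lay below those of wild type. The wild type fall was -4.3 ± 0.17 (adjusted p = 1.76e-16), a 19.7-fold change and the largest fall of the 36 genes there. It was -4.12 in gcn2Δ, -3.14 in gcn4Δ and -4.89 in mbf1Δ. The gcn4Δ interaction was 1.16 ± 0.21 (adjusted p = 1.88e-04), and those of gcn2Δ (0.18 ± 0.21, adjusted p = 0.559) and mbf1Δ (-0.59 ± 0.22, adjusted p = 0.0509) were not called. The latter was called by DESeq2 (-0.59, adjusted p = 0.0399), on TPM (-0.53, adjusted p = 0.00772) and in 6 of the 24 fits that each left out 1 library.

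SAM2 fell in each strain, from 178, 178 and 158 to 35.6, 32.4 and 34 CPM in wild type. Its log2 changes lay close together, at -2.33 in wild type, -2.33 in gcn2Δ, -2.36 in gcn4Δ and -2.21 in mbf1Δ. SAM2 interactions were 0.00 ± 0.13, -0.02 ± 0.12 and 0.12 ± 0.13 (± SE) and none was called. Per length, on the TPM scale, SAM1 stood at 6.02 ± 0.52 times SAM2 in untreated wild type and at 1.57 ± 0.041 times after MMS (SD, n = 3). The ratio went from 5.26 ± 0.28 to 1.56 ± 0.16 in gcn2Δ, from 6.59 ± 0.37 to 1.03 ± 0.16 in mbf1Δ and from 4.19 ± 0.16 to 2.39 ± 0.14 in gcn4Δ. The ratio was lower after MMS in each strain, and treated and untreated ratios did not overlap.

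The homocysteine methyltransferase genes SAM4 and MHT1 use S-adenosylmethionine and S-methylmethionine as methyl donors and share 68.0% of their aligned coding bases. SAM4 (YPL273W, chrXVI:25087-26064, plus strand) had 239, 231 and 272 CPM in untreated and 224, 229 and 221 in treated wild type. The gcn2Δ values were 254, 261 and 250.5 and 50.9, 49.9 and 44.4, and the gcn4Δ values 237, 236 and 252 and 77.5, 72 and 72.7. In mbf1Δ they were 248, 257 and 245 and 75.2, 71.4 and 65.6. Untreated libraries overlapped between wild type and each mutant, whereas all treated mutant libraries lay far below the treated wild type libraries. SAM4 was not called in wild type (-0.14 ± 0.065, adjusted p = 0.0533) and fell in gcn2Δ (-2.4), gcn4Δ (-1.71) and mbf1Δ (-1.82). Under other settings the wild type value was -0.16 with DESeq2 (adjusted p = 0.0105) and 0.44 on TPM (adjusted p = 0.0102). It was also called lower in 10 of the 24 fits that each left out 1 library. Its interactions were -2.26 ± 0.094, -1.57 ± 0.092 and -1.68 ± 0.093 in gcn2Δ, gcn4Δ and mbf1Δ, with adjusted p-values of 2.08e-14, 1.15e-11 and 5.83e-12.

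MHT1 (YLL062C, chrXII:16639-17613, minus strand) went the other way in gcn2Δ. It had 10.2, 9.62 and 12.2 CPM in untreated and 6.78, 7.54 and 6.33 in treated wild type. In gcn2Δ it went from 11.6, 11.8 and 11.2 to 19.4, 15.7 and 14.3, and in gcn4Δ from 13.1, 11.9 and 14.5 to 9.4, 9.83 and 10.9. The mbf1Δ libraries had 8.37, 9.49 and 9.72, then 12.6, 10.1 and 10.1. Treated libraries were above untreated ones in gcn2Δ and mbf1Δ and below them in wild type and gcn4Δ. MHT1 fell in wild type (-0.64 ± 0.14) and gcn4Δ (-0.39, which was 0.19 on TPM), rose in gcn2Δ (0.52 ± 0.12) and was not called in mbf1Δ (0.26 ± 0.13). Interactions were 1.15 ± 0.18 in gcn2Δ (adjusted p = 3.66e-05), 0.89 ± 0.19 in mbf1Δ (adjusted p = 0.00157) and, not called, 0.25 ± 0.18 in gcn4Δ (adjusted p = 0.31). On TPM the wild type fall was not called (-0.09, adjusted p = 0.65). The mbf1Δ response was called higher on TPM (0.81), without the ribosomal RNA rows (0.30, adjusted p = 0.037), and without treated gcn2Δ replicate 1 or treated mbf1Δ replicate 3 (0.26 and 0.32).

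**Figure D3:**
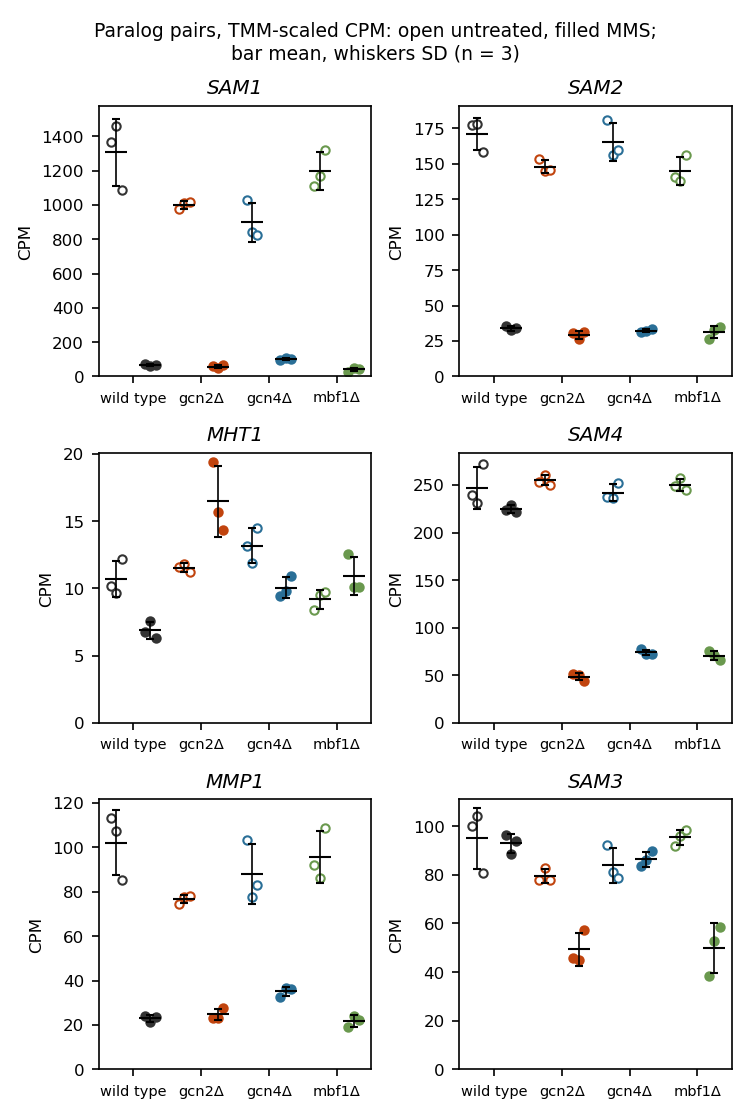
CPM after TMM scaling in each of the 24 libraries for 3 paralog pairs (rows SAM1 and SAM2, MHT1 and SAM4, MMP1 and SAM3, linear axes from 0), with open points untreated, filled points treated, and bars and whiskers the mean and SD of 3 replicates. SAM4 stays near its untreated level in treated wild type and is low in the 3 treated mutants, while MHT1 is highest in treated gcn2Δ.

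Of the permease genes, MUP1 rose and MMP1 fell in wild type. MUP1, the high-affinity methionine permease, rose in wild type (0.98 ± 0.094) and gcn4Δ (0.81) and was not called in gcn2Δ (0.16) or mbf1Δ (0.13). On TPM it was called higher in gcn2Δ (0.74, adjusted p = 2.03e-08) and mbf1Δ (0.81, adjusted p = 3.87e-09), and without treated mbf1Δ replicate 1 it was called on counts as well (0.18 and 0.26). Its interactions were -0.82 ± 0.13 in gcn2Δ (adjusted p = 3.78e-05) and -0.84 ± 0.13 in mbf1Δ (adjusted p = 5.59e-05), and -0.16 ± 0.13 in gcn4Δ was not called. MUP3, a low-affinity methionine permease, had lower interactions in gcn2Δ (-0.63) and mbf1Δ (-0.68) that were lost in 12 and 14 of the 24 fits that each left out 1 library, with an adjusted p of up to 0.123 and 0.119. Neither was called with the groups of the contrast alone (adjusted p = 0.111 and 0.0951). The gcn2Δ one was also lost with RLE size factors (adjusted p = 0.0517) and the mbf1Δ one on TPM (adjusted p = 0.0512). Its falls in gcn2Δ (-0.47) and mbf1Δ (-0.52) were 0.11 and 0.15 on TPM and not called, and it was called higher on TPM in wild type (0.74) and gcn4Δ (0.59). Without untreated wild type replicate 2, MUP3 was called higher in wild type on counts (0.42, adjusted p = 0.0244).

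MMP1 (YLL061W, chrXII:17956-19707, plus strand) encodes the S-methylmethionine permease. It had 113, 107 and 85.3 CPM in untreated and 24.1, 21.3 and 23.7 in treated wild type. The gcn2Δ values were 74.6, 77.4 and 77.9, then 23.3, 23.3 and 27.7, and the gcn4Δ values 103, 77.7 and 82.9, then 32.7, 36.6 and 36.1. In mbf1Δ they were 92.1, 86.1 and 109, then 19.1, 24.1 and 22.2. All treated libraries were below all untreated ones, and the treated gcn4Δ libraries were the highest of the treated. The wild type fall was -2.15 ± 0.12 (adjusted p = 1.71e-13) and the gcn4Δ interaction 0.82 ± 0.17 (adjusted p = 4.89e-04). The gcn2Δ interaction (0.51, adjusted p = 0.0204) was lost without treated wild type replicate 2 or untreated wild type replicate 1, with values of 0.43 and 0.46 and an adjusted p of up to 0.0617, and that of mbf1Δ (0.01) was not called.

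SAM3 (YPL274W, chrXVI:22938-24701, plus strand), the S-adenosylmethionine permease, shares 69.4% of its aligned coding bases with MMP1. Wild type had 100.03, 104 and 80.7 CPM untreated and 96.4, 88.7 and 93.9 treated. In gcn2Δ the values were 78, 82.7 and 77.7, then 45.9, 45.1 and 57.2, and in mbf1Δ 92, 95.9 and 98.3, then 38.5, 52.9 and 58.6. The gcn4Δ libraries had 92.1, 81.2 and 78.5, then 83.6, 86 and 89.6. Treated and untreated libraries overlapped in wild type and gcn4Δ and were apart in gcn2Δ and mbf1Δ. SAM3 was not called in wild type (-0.03 ± 0.12), where TPM gave 0.59, and fell in gcn2Δ (-0.69) and mbf1Δ (-0.94). On TPM the gcn2Δ fall was not called (-0.06, adjusted p = 0.448), and gcn4Δ was called higher (0.65). Interactions were -0.66 ± 0.16 in gcn2Δ (adjusted p = 0.00325), -0.91 ± 0.17 in mbf1Δ (adjusted p = 2.94e-04) and 0.07 ± 0.16 in gcn4Δ, which was not called (adjusted p = 0.766).

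Among the 6 regulators, 4 rose and 1 fell in wild type. MET28 (YIR017C, chrIX:383556-384119, minus strand), a leucine zipper cofactor of Met4 and Cbf1, changed most. It had 1.8, 2.05 and 2.23 CPM in untreated and 11.2, 11 and 12.3 in treated wild type. The gcn2Δ libraries had 2.73, 2.98 and 2.45, then 4.06, 3.11 and 4.06, and the gcn4Δ libraries 1.71, 2.1 and 2.55, then 5.18, 5.48 and 5.62. In mbf1Δ there were 2.28, 3.11 and 2.67, then 3.88, 4.47 and 5.6. Levels were low, treated libraries exceeded untreated ones in each strain, and treated wild type libraries were the highest. The wild type rise was 2.48 ± 0.17 (adjusted p = 5.58e-12). Interactions were -2.02 ± 0.24, -1.13 ± 0.24 and -1.71 ± 0.25 in gcn2Δ, gcn4Δ and mbf1Δ, with adjusted p-values of 8.65e-07, 9.49e-04 and 2.92e-05. The small rise within gcn2Δ (0.46) was lost without untreated gcn2Δ replicate 3, where it was 0.39 with an adjusted p of 0.0637.

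The zinc finger genes MET31 and MET32 share 63.1% of their aligned coding bases. MET31 (YPL038W, chrXVI:480535-481068, plus strand) had 16.2, 12.4 and 18.7 CPM in untreated and 9.82, 9.73 and 9.72 in treated wild type, and 17.3, 17.5 and 17.7, then 12.7, 11.5 and 10.1, in gcn2Δ. The gcn4Δ libraries had 18.1, 16.4 and 16.8, then 10.2, 10.5 and 8.87, and the mbf1Δ libraries 14.5, 17.8 and 14.9, then 12.2, 9.56 and 10.3. Treated libraries lay below untreated ones in each strain. MET32 (YDR253C, chrIV:963990-964565, minus strand) had 12.4, 9.62 and 6.97 CPM in untreated and 13.6, 10.3 and 10.0 in treated wild type, and 9.54, 7.35 and 8.71, then 12.3, 14 and 15.5, in gcn2Δ. Its gcn4Δ libraries had 9.59, 9.62 and 9.31, then 13.9, 14.5 and 15.1, and its mbf1Δ libraries 8.06, 9.9 and 9.2, then 12.6, 11.4 and 18. Treated MET32 libraries exceeded untreated ones in the 3 mutants and overlapped them in wild type. MET31 had log2 changes of -0.61, -0.79 and -0.55 in gcn2Δ, gcn4Δ and mbf1Δ, none of them called on TPM, and MET32 rose by 0.70, 0.61 and 0.62. In wild type MET32 was not called on counts (0.25), but it was on TPM (0.70, adjusted p = 2.61e-04) and without untreated wild type replicate 1 (0.46, adjusted p = 0.0349). No interaction of either gene was called on counts with all libraries, and that of MET32 in gcn2Δ was called without untreated wild type replicate 3 (0.65, adjusted p = 0.0392). MET4 rose in wild type (0.36), gcn2Δ (0.28) and mbf1Δ (0.41), with a gcn4Δ interaction of -0.39 ± 0.090 (adjusted p = 0.00157) that was not called on TPM (-0.37, adjusted p = 0.221). In gcn4Δ itself MET4 was at -0.03 on counts, not called, and at 0.52 on TPM (adjusted p = 0.00235). CBF1 rose most in gcn4Δ (1.1, against 0.63 in wild type), with an interaction of 0.47 ± 0.14 (adjusted p = 0.0101). On counts, CBF1 was lower in untreated gcn4Δ than in untreated wild type (-0.35, adjusted p = 0.0171). Treated gcn4Δ and treated wild type libraries overlapped for CBF1. MET30, the ubiquitin ligase subunit that restrains Met4, rose in all 4 strains with no interaction called.

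**Figure D4:**
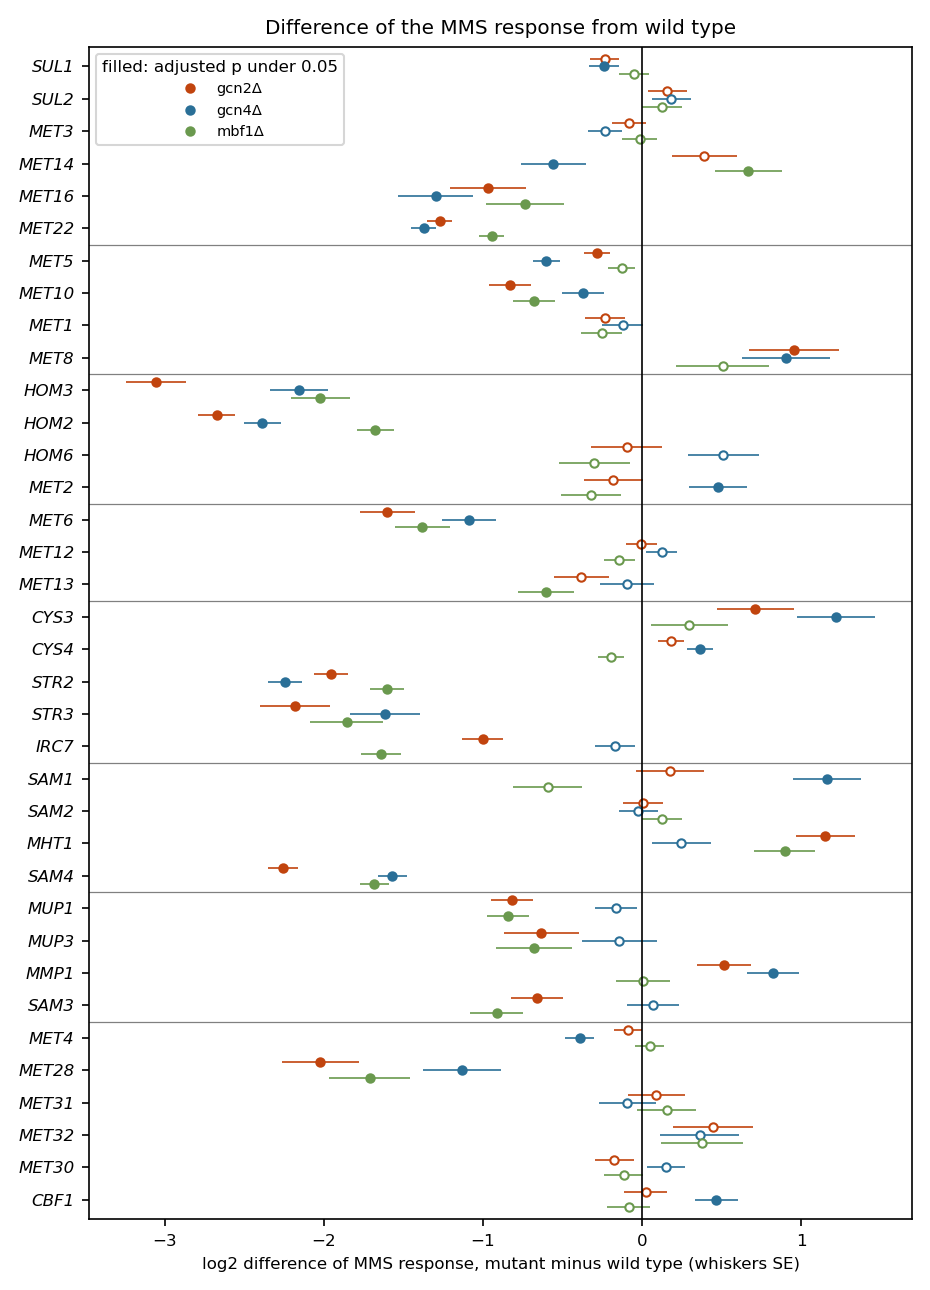
Difference of the MMS response from wild type (log2, mutant minus wild type) for the 36 genes in gcn2Δ, gcn4Δ and mbf1Δ, with whiskers showing SE and filled points adjusted p under 0.05. HOM3 and HOM2 lie farthest to the left in gcn2Δ (-3.05 and -2.67), and MHT1, CYS3, SAM1 and MET8 lie to the right in at least 1 mutant.

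The members with TGACTCA upstream, shown above, were MET16, MET22, MET5, HOM2, MUP1, MUP3 and MET28. Of these 7, 5 rose in wild type, with a median log2 change of 0.98, against 14 higher and 9 lower among the other 29 genes, with a median of 0.25. All 7 had a lower gcn2Δ interaction (median -0.97), against 8 of the other 29 (median -0.09) and 17.3% of all genes. Of the 7 calls, that of MUP3 was lost in 12 of the 24 fits that each left out 1 library, and that of MET5 in 1 of them and on TPM (-0.27, adjusted p = 0.356). In gcn4Δ the interaction was lower for 5 of 7 (median -1.13) and 9 of 29 (median -0.02), and in mbf1Δ for 6 of 7 (median -0.84) and 9 of 29 (median -0.14). The shares of all genes were 16.4% and 12.4% there. MET1 and MHT1 match TGANTCA but not TGACTCA, and neither had a lower interaction called. MET1 was not called (-0.23, -0.12 and -0.25 in gcn2Δ, gcn4Δ and mbf1Δ). MHT1 was higher in gcn2Δ (1.15) and mbf1Δ (0.89) and not called in gcn4Δ (0.25). HOM3, STR2, STR3, MET6 and SAM4 had no match to any of the motifs in the window and were lower in all 3 interactions. So was MET10, which had no match to TGACTCA or TGANTCA. These counts describe letters in a fixed window and were not tested. The 10 genes with CACGTG had median interactions of -0.14, -0.11 and -0.21 in gcn2Δ, gcn4Δ and mbf1Δ, and the 26 without it -0.23, -0.13 and -0.29.

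The mutants' responses were also compared with each other, with the difference of responses tested in the same fit. The response of gcn4Δ was above that of gcn2Δ for 14 members and below it for 5 (18.3% and 14.5% of all genes). SAM1 (0.98 ± 0.21, adjusted p = 0.00148), HOM3 (0.90 ± 0.18, adjusted p = 8.92e-04) and MET28 (0.89 ± 0.23, adjusted p = 0.00576) were among the higher, and MET14 (-0.95 ± 0.19, adjusted p = 8.59e-04) and MHT1 (-0.90 ± 0.17, adjusted p = 4.19e-04) among the lower. The MET14 difference was not called on TPM (-0.88, adjusted p = 0.0602). The 5 lower calls became 3 without treated gcn2Δ replicate 2 or treated gcn4Δ replicate 3. Between mbf1Δ and gcn2Δ 5 members were higher and 3 lower (2.7% and 4.04% of all genes). HOM3 (1.03 ± 0.18, adjusted p = 0.00127) and HOM2 (1.00 ± 0.12, adjusted p = 1.16e-05) were higher in mbf1Δ, and IRC7 (-0.64 ± 0.13, adjusted p = 0.00354) was lower. The 5 higher calls became 3 without treated gcn2Δ replicate 3, and a fit to the groups of that contrast alone gave 3 higher and 0 lower. Between mbf1Δ and gcn4Δ 7 were higher and 12 lower (21% and 22.8% of all genes), led by SAM1 (-1.75 ± 0.22, adjusted p = 1.62e-06) and IRC7 (-1.47 ± 0.13, adjusted p = 1.16e-08) on the lower side and MET14 (1.22 ± 0.20, adjusted p = 4.95e-05) on the higher.

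Without MMS the strains differed less. In untreated gcn2Δ, IRC7 was lower than in wild type (-0.40 ± 0.089, adjusted p = 0.0461) and no member was higher, with 1 at an unadjusted p under 0.05 and 0 called higher by DESeq2 (0.12% of all genes higher and 0.309% lower). That unadjusted count is for the higher side only. The members' median log2 value there was -0.15, against 0.02 for all genes. The IRC7 call was lost on TPM (-0.09, adjusted p = 0.336), with the groups of the contrast alone (adjusted p = 0.0764) and in 13 of the 24 fits that each left out 1 library, with an adjusted p of up to 0.249. In untreated gcn4Δ, MET14 was higher (0.57 ± 0.15, adjusted p = 0.0108) and 6 members were lower (9.19% and 10.1% of all genes). These 6 were HOM3 (-0.62), SAM1 (-0.54), HOM2 (-0.51), CBF1 (-0.35), MET10 (-0.33) and MET12 (-0.21), of which CBF1, MET10 and MET12 were at 0.04, 0.12 and 0.25 on TPM, and HOM3, SAM1 and HOM2 at -0.14, -0.15 and -0.09, none called lower. The MET12 call was also lost with the groups of the contrast alone (adjusted p = 0.0744). Ribosomal RNA rows took 1.02 to 1.51% of counts in untreated gcn4Δ and 11.6 to 18.6% in untreated wild type. The deletion and that difference cannot be told apart in this contrast. In untreated mbf1Δ no member was called (0.0172% of all genes higher and 0.137% lower). There, 0 members were higher and 1 lower at an unadjusted p under 0.05, and DESeq2 called 0. On TPM, where the median of all genes lay 0.33 higher in untreated gcn2Δ and 0.42 higher in untreated gcn4Δ, 9 members were higher and 0 lower in gcn2Δ and 23 higher and 0 lower in gcn4Δ. The shares of all genes called on TPM are not given here, and the shares above are those of edgeR. The untreated counts also rest on single libraries. Without untreated wild type replicate 3, which stood apart, 13 members were lower and 1 higher in gcn2Δ, and 13 lower and 2 higher in gcn4Δ. Without untreated wild type replicate 1 or 2, 2 members were lower in gcn4Δ and 0 higher. Without untreated gcn4Δ replicate 2 or 3, 3 were lower, and without treated mbf1Δ replicate 1, 11 were lower in gcn2Δ. The shares of all genes above belong to the fit to all 24 libraries. Those of the fits without 1 library are not given here, so these counts cannot be set against a background.

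Compared per length on the TPM scale, untreated wild type cells had most of CYS3 (673 ± 61.1, SD, n = 3) and SAM1 (600.3 ± 20.7) and least of MET28 (1.71 ± 0.38) and STR3 (1.81 ± 0.079). After MMS, HOM2 (1066 ± 21) and HOM6 (820.1 ± 46.6) were the highest of the 36 in wild type, and MET8 (3.31 ± 0.18) the lowest.

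A further 25 sulfur genes outside the set cover glutathione, sulfur scavenging, methionine salvage and the threonine branch. Of these, 12 rose and 12 fell in wild type (median 0.05), where 42% and 41.2% of all genes did. Interactions called were 5 higher and 4 lower (gcn2Δ), 6 and 6 (gcn4Δ), and 1 and 4 (mbf1Δ), beside the shares of all genes given above (18.6% and 17.3%, 18.8% and 16.4%, and 11.6% and 12.4%). SSU1, the sulfite exporter, rose by 4.55 ± 0.14 in wild type, with interactions of -1.85 ± 0.18, -0.66 ± 0.17 and -1.76 ± 0.18 in gcn2Δ, gcn4Δ and mbf1Δ. SAH1, the S-adenosylhomocysteine hydrolase, fell in wild type (-3.18 ± 0.13). THR1, the homoserine kinase that draws homoserine to threonine, had interactions of -0.82 ± 0.22 in gcn2Δ and -1.06 ± 0.22 in mbf1Δ, while 0.34 ± 0.22 in gcn4Δ was not called.

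The authors' deposited tables of the MMS effect in each mutant were set beside the interactions here, not beside the responses within a strain. The authors' deposited table for gcn2Δ called 20 of the 36 members at an adjusted p under 0.05, 19 of them also called in the interaction here, with CYS4 added. In the authors' deposited table for gcn4Δ, 19 were called, all of them also called here, where SUL1 and MET2 were called in addition. The authors' deposited table for mbf1Δ called 19, including the 17 called here and also CYS4 and SAM1. Members called in both sources had the same direction in each table, and the largest differences in log2 value from the authors' deposited tables were 0.24, 0.30 and 0.28 in gcn2Δ, gcn4Δ and mbf1Δ.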

How the data were processed

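Per the submitters' processing notes, the authors used FastQC 0.11.9, fastp, Salmon 1.10.1 and DESeq2 1.38.3 with the R64 build, and per the labels' protocols RNA was poly-A selected, primed with random hexamers and read as pairs of 150 bases. Strand is not given in the sources used here. The files deposited by the authors give each gene an estimated count, TPM, a length and an effective length in bases. The authors' deposited comparison tables, per the file headers, give the p-value and its adjusted form, the log2 fold change with error, and a score, the mean of normalized counts. For 5907 genes the length was the coding length plus 400 bases.

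Rounded estimated counts entered edgeR 4.0.16 (R 4.3.3), with filterByExpr (minimum count 10, 5824 genes kept), TMM scaling and a coefficient per group over all 24 libraries (16 residual degrees of freedom, biological coefficient of variation 8.49%). In all, 13 contrasts were tested with the quasi-likelihood test, two-sided, and adjusted over all genes by Benjamini-Hochberg. SE is implied by the test statistic, and CPM is the count scaled to a common total after TMM. The fit was tested on simulated data. Alternatives were DESeq2 1.42.0, RLE size factors, no filter, no ribosomal RNA rows, the groups of a contrast alone, limma 3.58.1 on log2(TPM + 1), a replicate block and leaving out each library. TPM values entered limma with no further scaling between libraries. The labels call the replicates biological. The p-values weigh a difference between groups against the spread of replicates within groups, estimated over all 24 libraries.

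The 36 members, the 25 other sulfur genes, the motifs and the tests were chosen with earlier results of these data known. All members may be named. Values per library are given for the member of each role with the largest called change in wild type or in an interaction, and for paralogs that moved apart in a called response. HOM2 and SAM2 were added after their values were seen. Upstream sequences were read from the R64 genome of RefSeq, and paralogs were compared by coding sequence. No member had a near-identical copy (at least 90% identity over 50% of its length). More than 10% of the coding span of HOM2, MUP3, MET28 and MET32 lies in a neighbour's model, and reads there cannot be told apart by position.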

Additional observations from a re-analysis of the deposited data

Results flagged for a closer look

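Each value below is the difference of an MMS response (log2) between a pair of strains, flagged because that difference itself passed the quasi-likelihood test of edgeR at an adjusted p under 0.05. Contrasts that share a strain share its libraries and are not independent.

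In gcn2Δ against wild type, the response was lower for HOM3 (-3.05), HOM2 (-2.67), SAM4 (-2.26), STR3 (-2.18), MET28 (-2.02), STR2 (-1.95), MET6 (-1.60), MET22 (-1.27), IRC7 (-1.0), MET16 (-0.97), MET10 (-0.83), MUP1 (-0.82), SAM3 (-0.66), MUP3 (-0.63) and MET5 (-0.28). It was higher for MHT1 (1.15), MET8 (0.96), CYS3 (0.71) and MMP1 (0.51). Calls lost in at least 1 of the 24 fits that each left out 1 library were MET5 (lost in 1, adjusted p of up to 0.053), MMP1 (lost in 2, adjusted p of up to 0.0617), CYS3 (lost in 5, adjusted p of up to 0.0732) and MUP3 (lost in 12, adjusted p of up to 0.123).

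In gcn4Δ against wild type, the response was lower for HOM2 (-2.39), STR2 (-2.24), HOM3 (-2.15), STR3 (-1.61), SAM4 (-1.57), MET22 (-1.37), MET16 (-1.30), MET28 (-1.13), MET6 (-1.09), MET5 (-0.60), MET14 (-0.56), MET4 (-0.39), MET10 (-0.37) and SUL1 (-0.24). It was higher for CYS3 (1.22), SAM1 (1.16), MET8 (0.91), MMP1 (0.82), MET2 (0.48), CBF1 (0.47) and CYS4 (0.36). Calls lost in at least 1 of the 24 fits that each left out 1 library were MET10 (lost in 9, adjusted p of up to 0.114), MET14 (lost in 11, adjusted p of up to 0.107), MET2 (lost in 15, adjusted p of up to 0.148) and SUL1 (lost in 19, adjusted p of up to 0.214).

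In mbf1Δ against wild type, the response was lower for HOM3 (-2.02), STR3 (-1.86), MET28 (-1.71), HOM2 (-1.68), SAM4 (-1.68), IRC7 (-1.64), STR2 (-1.60), MET6 (-1.38), MET22 (-0.95), SAM3 (-0.91), MUP1 (-0.84), MET16 (-0.74), MUP3 (-0.68), MET10 (-0.68) and MET13 (-0.60). It was higher for MHT1 (0.89) and MET14 (0.67). Calls lost in at least 1 of the 24 fits that each left out 1 library were MET14 (lost in 4, adjusted p of up to 0.109), MET16 (lost in 8, adjusted p of up to 0.0919) and MUP3 (lost in 14, adjusted p of up to 0.119).

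For gcn4Δ against gcn2Δ, the response was lower for MET14 (-0.95), MHT1 (-0.90), MET5 (-0.32), MET4 (-0.30) and STR2 (-0.29). It was higher for SAM1 (0.98), HOM3 (0.90), MET28 (0.89), IRC7 (0.83), SAM3 (0.73), SAM4 (0.69), MET2 (0.66), MUP1 (0.65), HOM6 (0.61), STR3 (0.57), MET6 (0.51), MET10 (0.45), CBF1 (0.44) and MET30 (0.32). Calls lost in at least 1 of the 24 fits that each left out 1 library were MET4 (lost in 2, adjusted p of up to 0.0636), MET6 (lost in 3, adjusted p of up to 0.0772), MET30 (lost in 9, adjusted p of up to 0.107), STR2 (lost in 9, adjusted p of up to 0.147), HOM6 (lost in 10, adjusted p of up to 0.102) and STR3 (lost in 14, adjusted p of up to 0.157).

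For mbf1Δ against gcn2Δ, the response was lower for SAM1 (-0.77), IRC7 (-0.64) and CYS4 (-0.37). It was higher for HOM3 (1.03), HOM2 (1.0), SAM4 (0.57), STR2 (0.35) and MET22 (0.33). Calls lost in at least 1 of the 24 fits that each left out 1 library were MET22 (lost in 1, adjusted p of up to 0.0513), SAM1 (lost in 6, adjusted p of up to 0.0934) and STR2 (lost in 19, adjusted p of up to 0.155).

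For mbf1Δ against gcn4Δ, the response was lower for SAM1 (-1.75), IRC7 (-1.47), SAM3 (-0.98), CYS3 (-0.92), MMP1 (-0.82), HOM6 (-0.81), MET2 (-0.80), MUP1 (-0.68), CYS4 (-0.56), CBF1 (-0.55), MET13 (-0.51) and MET12 (-0.27). It was higher for MET14 (1.22), HOM2 (0.71), MHT1 (0.65), STR2 (0.64), MET5 (0.47), MET4 (0.44) and MET22 (0.43). Calls lost in at least 1 of the 24 fits that each left out 1 library were MET13 (lost in 2, adjusted p of up to 0.0676) and MET12 (lost in 4, adjusted p of up to 0.0812).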

How the results depend on the processing

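The 26 counts of members and 468 values of single members were recomputed under each setting. A value was counted as kept when it stayed on its side of the threshold with the same sign, or was called in neither fit. Under DESeq2 451 values were kept, under RLE size factors 457, without ribosomal RNA rows 461, without the low-count filter 468 and with the groups of a contrast alone 446. On log2(TPM + 1) with limma, 361 were kept and 39 changed sign, and all 39 became positive. There the median of all genes shifted by 0.55, 0.56, 0.54 and 0.67 in the responses of wild type, gcn2Δ, gcn4Δ and mbf1Δ, and by 0.33, 0.42 and 0.09 in untreated gcn2Δ, gcn4Δ and mbf1Δ. The TPM values that changed sign were, in the wild type response MET14 (0.54), MET5 (0.45), SAM4 (0.44) and SAM3 (0.59), in that of gcn2Δ MET22 (0.49), MET5 (0.18), HOM6 (0.52), CYS3 (0.66), MUP3 (0.11) and MET31 (0.0079), in that of gcn4Δ MET14 (0.016), MET22 (0.41), HOM3 (0.059), MHT1 (0.19) and MET4 (0.52); in that of mbf1Δ MET5 (0.42), HOM3 (0.26), HOM6 (0.42), MET12 (0.67), CYS3 (0.29), MUP3 (0.15) and MET31 (0.14), in untreated gcn2Δ MET22 (0.25) and CYS4 (0.22), in untreated gcn4Δ MET22 (0.30), MET10 (0.12), HOM6 (0.19), MET6 (0.34), MET12 (0.25), MET13 (0.34), CYS4 (0.36), IRC7 (0.33), SAM2 (0.36), SAM4 (0.42), MUP1 (0.44), MMP1 (0.26), SAM3 (0.27), MET4 (0.39) and CBF1 (0.037). No interaction and no contrast between mutants changed sign in a called value.

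On TPM the members lower became 8 in the gcn2Δ response and 7 in that of gcn4Δ, those higher 1 in the mbf1Δ interaction, and those lower 1 for gcn4Δ against gcn2Δ and higher 2 for mbf1Δ against gcn2Δ. Untreated, TPM gave 9 higher and 0 lower in gcn2Δ, and 23 higher and 0 lower in gcn4Δ. DESeq2 gave 2 members lower in untreated gcn2Δ. With the groups of a contrast alone, 0 were lower in untreated gcn2Δ, and for mbf1Δ against gcn2Δ 3 were higher and 0 lower. Leaving out 1 library gave 2 to 5 members higher in the gcn2Δ interaction, 1 to 2 higher in that of mbf1Δ, 3 to 5 lower for gcn4Δ against gcn2Δ and 3 to 5 higher for mbf1Δ against gcn2Δ. It gave 0 to 1 higher and 0 to 13 lower in untreated gcn2Δ, and 0 to 2 higher and 2 to 13 lower in untreated gcn4Δ. Of 11232 such values of single members, 10856 were kept and none changed sign between calls. For none of these counts is the share of all genes called under the same setting given here.

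Same-numbered libraries of different groups correlated by -0.55 to 0.54 (median -0.02), and 15 of 84 correlations were over 0.1. Treated gcn2Δ and treated mbf1Δ gave 0.53, -0.20 and 0.54 for replicates 1, 2 and 3. The labels do not say that the numbers pair samples, and these values cannot decide it for particular groups. With a replicate block, 463 of 468 values were kept, the wild type response stayed at 19 higher and 9 lower, and the gcn4Δ interaction had 6 higher and 13 lower. The causes of these shifts were not tested. Depth was lowest behind MET28 and STR3, at 1.8 to 2.23 and 3.18 to 3.92 CPM in untreated wild type.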
